A study of Homo sapiens with 6 samples.

Results

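The DEAD-box and DEAH-box RNA helicases were taken as all protein-coding genes whose GENCODE symbol starts with DDX or DHX followed by a number, leaving out chromosome Y. Of 53 such genes in the annotation, 51 (35 DDX and 16 DHX) had a counted transcript, out of 37192 genes and 18937 protein-coding genes matched in the series. DDX27 and DDX50 were not analysed here. RIGI, which was formerly called DDX58, no longer carries a DDX symbol in the annotation and lies outside the rule. K562 cells, a human chronic myelogenous leukemia line, were profiled without any treatment by PRO-seq (2 libraries) and by sequencing of total RNA (4 libraries). According to the methods the cells shared 1 flask, so every p-value given here measures the spread between libraries and not between cultures. PRO-seq reads out nascent RNA held by engaged polymerases, whereas sequencing of rRNA-depleted total RNA reads out the steady-state pool.

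These helicases bind RNA and use ATP to unwind short duplexes or to strip proteins from RNA. The family takes its names from a short motif, the Walker B box, which takes part in ATP hydrolysis. DEAD-box proteins are known for local strand separation in translation initiation, splicing and ribosome assembly, and DEAH-box proteins for moving along RNA and driving the late steps of splicing. Levels are given in TPM (a measure that divides counts by the length of the transcription unit, or TU, and by the total of the library). In RNA-seq the length was that of the exons, and in PRO-seq the genomic span less 1000 bp. The relative RNA half-life of a gene is its RNA-seq TPM over its PRO-seq TPM, with counts pooled over libraries, on the log2 scale. It was set to 0 for the median mRNA, whose RNA-seq TPM was 0.643 of its PRO-seq TPM. Values below are therefore relative, and a value of 1 means a ratio 2 times that of the median mRNA. The paper reads this ratio as a half-life on the assumption of a steady state. It adds that PRO-seq signal also depends on elongation rate, which was not corrected for here. It also found half-lives from these new libraries to be more variable than those from published data. A gene was tested if it had more than 10 TPM in PRO-seq and more than 1 TPM in RNA-seq.

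The coding sequence around the Walker B box is shown for the members at both ends of the half-life order, with the box codons in capitals and 9 bases on each side. The first 6 are those with the highest relative half-life and the next 6 those with the lowest, in the order of their values. The last 4 are pairs of near relatives whose counts bear on the results.
DDX1: ctggtcctgGATGAAGCTGATgggcttctt
DHX40: attattttgGATGAAGCCCATgaaagaact
DDX21: gttgtcctgGATGAAGTGGACcagatgttg
DDX10: ttagttcttGATGAAGCAGATagaatcttg
DDX18: ctggttattGATGAAGCTGATcgtatcttg
DDX3X: ttggtgttaGATGAAGCTGATcggatgttg
DHX58: atcgtggtgGATGAGTGCCACcacacgcac
DDX51: ctgattatcGACGAGGCTGACcggatgatt
DDX28: ttggtgttgGATGAGGCAGACacactgctg
DHX36: atcgtacttGATGAAATCCATgaaagaaat
DHX33: gtcattttgGATGAAGCTCACgaacggact
DDX31: ttggtgtttGATGAAGCAGACagaatcttg
DDX19A: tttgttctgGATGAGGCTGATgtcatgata
DDX19B: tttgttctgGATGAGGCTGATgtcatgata
DDX39A: tttgtgctgGACGAGTGTGACaagatgctg
DDX39B: tttattttgGATGAATGTGATaagatgctt

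These stretches were read from the MANE Select transcripts of GENCODE release 44 on GRCh37 and lie in coding exons. On the plus strand, that of DHX40 lies in exon 4 at chr17:57650558-57650587, that of DDX21 in exon 6 at chr10:70726875-70726904, that of DDX18 in exon 7 at chr2:118579759-118579788 and that of DDX3X in exon 11 at chrX:41204437-41204466. On the minus strand, that of DHX58 lies in exon 5 at chr17:40262891-40262920, that of DDX28 in exon 1 at chr16:68056230-68056259, that of DHX36 in exon 8 at chr3:154022710-154022739 and that of DHX33 in exon 3 at chr17:5365717-5365746. For 4 genes the stretch crosses an intron, so its coordinates enclose that intron. They are DDX1 in exons 15 and 16 at chr2:15757449-15758316 and DDX10 in exons 5 and 6 at chr11:108549159-108550123 on the plus strand, and DDX51 in exons 7 and 8 at chr12:132625939-132626045 and DDX31 in exons 10 and 11 at chr9:135523676-135523841 on the minus strand. DDX19A (exon 8, chr16:70400095-70400124, plus strand) and DDX19B (exon 8, chr16:70363302-70363331, plus strand) had the same 30 bases. DDX39A (exon 5, chr19:14521811-14521840) and DDX39B (exon 5, chr6:31504287-31504316), both on the minus strand, carry a DECD box. A search of the reading frames found a DEAD box in 27 of the 35 DDX genes and a DEAH box in 8 of the 16 DHX genes. It found no box in 3 DDX genes and 1 DHX gene, which may hold one that it missed. DDX21 carries DEVD, DHX36 carries DEIH and DHX58 carries DECH.

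Most helicase mRNAs lay above the median mRNA in relative half-life. Of the 51 members, 41 (25 DDX and 16 DHX) were past the thresholds, 24 were above the median mRNA, 13 were below it and 4 could not be told from it by the edgeR quasi-likelihood test with Benjamini-Hochberg adjustment over 10053 TUs. Over all TUs tested, 40.0% were above and 50.4% below, and over the 8733 mRNAs alone 45.4% were above and 44.9% below. For a difference of more than 2-fold (edgeR glmTreat), 13 members were above and 4 below, against 21.3% and 29.8% of all TUs. Those shares include TUs other than mRNAs, and none was computed over mRNAs alone. The median member was at 0.38, and the middle of the distribution lay between -0.24 and 1.31 (quartiles). The DDX median was 0.38 and the DHX median 0.40. The highest member, DDX1, had 19.5 times the relative half-life of the lowest, DHX58. The SD across members was 1.15 on the log2 scale, against 1.68 across mRNAs, and the median replicate SD of a member was 0.0873. The 30 tested members counted on their MANE Select transcript had a median of 0.31, and the 11 counted on another transcript had 1.07. The part of the counted transcript in the member values was not tested.

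**Figure D1:**
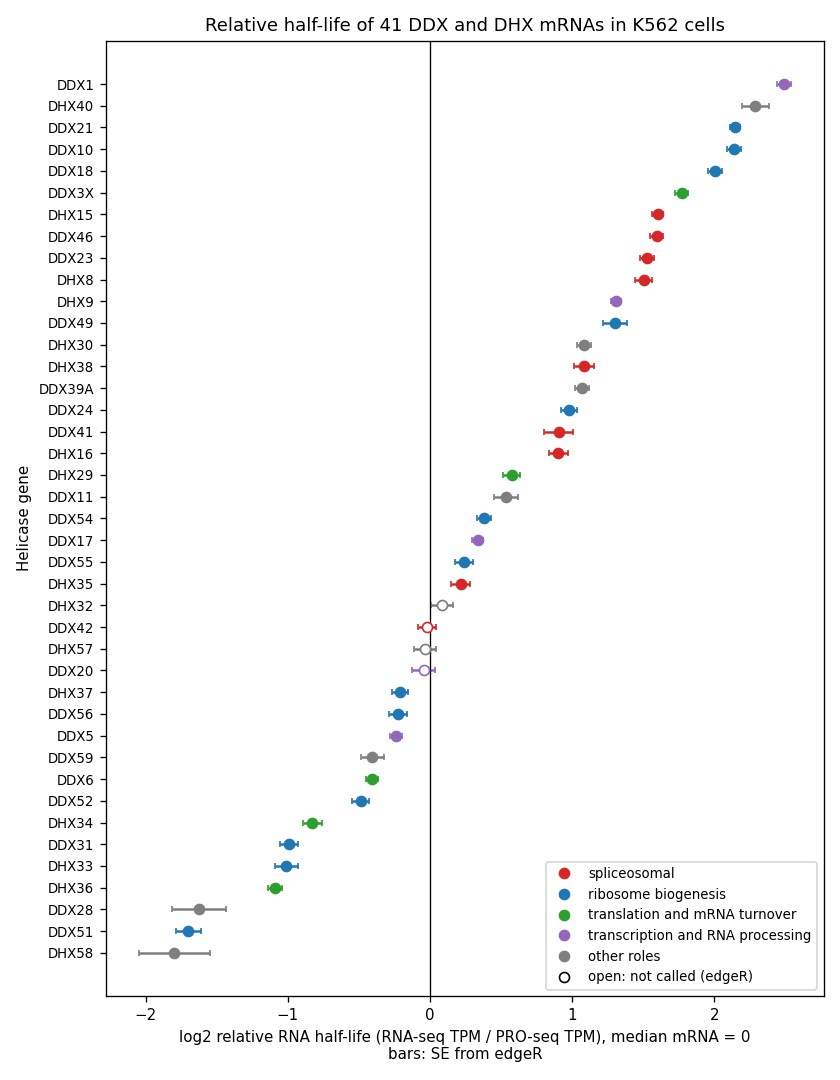
Relative half-life of the 41 tested helicase mRNAs on the log2 scale (x axis, median mRNA at 0), 1 gene per row, with the SE from edgeR as bars, colours for roles and open circles for the 4 members not called. Values run from -1.80 for DHX58 to 2.49 for DDX1, and the spliceosomal members (red) sit from -0.02 upwards.

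The precision behind these values differed between members. Over the 41 tested members, pooled counts ran from 86 to 47953 in RNA-seq and from 71 to 8334 in PRO-seq, and the SE of the log2 half-life from 0.034 for DHX9 to 0.25 for DHX58. Libraries held between 5732780 and 9002746 counts on TUs in RNA-seq, and 6993816 and 7245632 in PRO-seq. RNA-seq replicates 1 and 3 differed by little more than sampling noise (chi-square per degree of freedom 1.12), as did replicates 2 and 4 (1.12), whereas the other RNA-seq pairs gave 1.74 to 2.11. Each close pair may therefore come from the same RNA, which the labels do not say. With each of these close pairs summed to 1 library, 24 members were again above and 13 below. The erythroid factors GATA1 (155 TPM in RNA-seq), TAL1 (79.7) and KLF1 (186) were present, whereas CD3E, MS4A1, ALB, COL1A1 and GFAP, markers of other cell types, were at 0.0413 to 0.483 TPM. EPCAM, an epithelial marker, was at 120 TPM.

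The spliceosomal helicases stood almost wholly above the median mRNA. These enzymes remodel the spliceosome during assembly, catalysis and release. All 9 listed members were tested, 8 were above, 0 below and 1 was not called (edgeR), with a median of 1.08 and a range from -0.02 to 1.60, where 45.4% of mRNAs were above. For a difference of more than 2-fold 4 of the 9 were above, against 21.3% of all TUs, a share that includes TUs other than mRNAs. DHX15, which takes the spent spliceosome apart, had RNA-seq levels of 337, 339, 349 and 351 TPM in replicates 1 to 4 and PRO-seq levels of 172 and 179 TPM. This gave a log2 half-life of 1.60 (SE 0.038). DDX46, which acts in early spliceosome assembly, was at 1.59 (SE 0.048), and DDX23, a component of the U5 particle, at 1.53 (SE 0.047). DHX16 was at 0.90 (SE 0.065), DDX41 at 0.91 (SE 0.10) and DHX35 at 0.22 (SE 0.066). DDX42 was the member not called, at -0.02 (SE 0.061).

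The members that release spliced mRNA and act around the second step of splicing are near relatives, DHX8 and DHX38. DHX8 had 34.3, 35.5, 35.3 and 34.9 TPM in RNA-seq and 19.1 and 19.3 TPM in PRO-seq, with a log2 half-life of 1.50 (SE 0.061). DHX38 had 66.7, 64.7, 63.1 and 66.7 TPM in RNA-seq and 45.2 and 50.8 TPM in PRO-seq, with a log2 half-life of 1.08 (SE 0.073). Both were steady across the RNA-seq libraries, and the ranges of the 2 genes did not overlap in either assay. The counted DHX8 transcript is annotated as a target of nonsense-mediated decay, holds 73.2% of the exon bases of the MANE Select transcript and spans 2.56 times its length, and 31.8% of its PRO-seq window lies in a counted TU on the other strand. The part of that model in the DHX8 value was not tested.

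Helicases of ribosome biogenesis ranged from near the top to near the bottom of the order. They assist the folding and cleavage of pre-rRNA in the nucleolus. Of 14 listed members, 13 were tested, 7 were above the median mRNA and 6 below (edgeR), with a median of 0.24 and a range from -1.70 to 2.15. These shares lie near those over all mRNAs (45.4% above and 44.9% below). With at least 1 summed count per assay in place of the TPM thresholds 10 were above and 3 below, with a median of 0.87. Shares over all mRNAs were not computed with this filter. At the top were DDX21, DDX10 and DDX18. DDX21, a nucleolar helicase that acts on pre-rRNA and on its transcription, had the highest RNA-seq level of the family, 738, 766, 755 and 767 TPM, against 271 and 260 TPM in PRO-seq. The log2 half-life of DDX21 was 2.15 (SE 0.035, edgeR adjusted p 5.62e-30). DDX10 had 92.5, 90.2, 87.6 and 93.7 TPM in RNA-seq and 33.1 and 31.2 TPM in PRO-seq, with a log2 half-life of 2.14 (SE 0.048, edgeR adjusted p 1.41e-26). DDX21 and DDX10 therefore had nearly the same half-life at RNA-seq levels that did not overlap. DDX18 had 259, 277, 275 and 274 TPM in RNA-seq and 105 TPM in both PRO-seq libraries, with a log2 half-life of 2.01 (SE 0.051, edgeR adjusted p 3.16e-25). In each of these 3 genes every RNA-seq value lay above both PRO-seq values, which describes genes chosen for a high ratio.

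At the other end of the same group were DDX51, DHX33 and DDX31. DDX51, which acts in maturation of the large subunit, had 25.6, 24.6, 25.5 and 26.2 TPM in RNA-seq and 120 and 137 TPM in PRO-seq. Its log2 half-life was -1.70 (SE 0.090, edgeR adjusted p 3.6e-17), and its PRO-seq level was the 11th highest of the family although its RNA-seq level was the 36th. DHX33 had 12.7, 13.1, 12.6 and 13.3 TPM in RNA-seq and 39.2 and 41.9 TPM in PRO-seq, with a log2 half-life of -1.01 (SE 0.084, edgeR adjusted p 1.94e-12). A share of 25.5% of its PRO-seq window lies in another counted TU on the same strand. DDX31 had 22.1, 20.8, 24.1 and 19.8 TPM in RNA-seq and 64.5 and 69.0 TPM in PRO-seq, with a log2 half-life of -0.99 (SE 0.064, edgeR adjusted p 4.6e-15). In all 3 genes both PRO-seq values exceeded every RNA-seq value, which describes genes chosen for a low ratio. The remaining 7 lay between -0.49 (DDX52) and 1.30 (DDX49). The counted DDX49 transcript is annotated as a target of nonsense-mediated decay. Its whole PRO-seq window lies in a counted TU on the other strand (100%), and the part of this in its value was not tested. The calls of DDX56 (-0.23) and DHX37 (-0.21) below the median mRNA were lost with at least 10 summed counts (-0.11 and -0.10) and turned to above with at least 1 (0.40 and 0.42), as did that of DDX52 (0.14). DDX56 also lost its call without PRO-seq replicate 2 (-0.18). Its counted transcript is annotated as a target of nonsense-mediated decay, and 61.2% of the counted exon bases lie in the MANE Select transcript. What this model adds to the DDX56 value was not tested.

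Members that act on translation and mRNA turnover lay on both sides of the median mRNA. Of 5 listed and tested, 2 were above and 3 below (edgeR), and the median was -0.41, against 45.4% of mRNAs above and 44.9% below. With at least 1 summed count per assay, where shares over all mRNAs were not computed, the group turned, to 3 above, 2 below and a median of 0.22. DDX3X, which aids the scanning of structured mRNA leaders, was the highest, with 353, 380, 359 and 385 TPM in RNA-seq and 173 and 164 TPM in PRO-seq. For DDX3X the log2 half-life was 1.77 (SE 0.045, edgeR adjusted p 2.42e-25). The counted DDX3X transcript holds 44.4% of the exon bases of its MANE Select transcript and spans 1.93 times its length, and the part of this model in the value was not tested. DHX36, which resolves G-quadruplexes in RNA, had 30.9, 30.3, 31.0 and 32.1 TPM in RNA-seq and 104 and 102 TPM in PRO-seq, with a log2 half-life of -1.09 (SE 0.050, edgeR adjusted p 9.48e-19). Its RNA-seq values lay close together, and both PRO-seq values were above them. DHX29, which helps the small ribosomal subunit to scan, was at 0.58 (SE 0.059). A share of 75.3% of its PRO-seq window lies in a counted TU on the other strand, and the part of this was not tested. DDX6, which joins translational repression to decapping, was at -0.41 (SE 0.044), and DHX34, which takes part in nonsense-mediated decay, at -0.83 (SE 0.068). At that threshold, where the median mRNA was lower by 0.63 on the log2 scale, DDX6 changed sign (0.22).

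The group that acts in transcription and RNA processing held the member with the highest half-life and the member with the highest nascent level. Of 5 tested, 3 were above, 1 was below and 1 was not called (edgeR), with a median of 0.33, against 45.4% of mRNAs above and 44.9% below. With at least 1 summed count per assay, where shares over all mRNAs were not computed, 5 were above and 0 below, with a median of 0.96. DDX1, which takes part in tRNA splicing, had 267, 278, 274 and 269 TPM in RNA-seq and 79.1 and 71.6 TPM in PRO-seq. The log2 half-life of DDX1 was 2.49 (SE 0.050, edgeR adjusted p 7.05e-28), above 93.3% of tested mRNAs. DHX9, which unwinds a broad range of RNA and DNA structures in the nucleus, had 536, 526, 549 and 528 TPM in RNA-seq and 340 and 330 TPM in PRO-seq, with a log2 half-life of 1.31 (SE 0.034, edgeR adjusted p 5.75e-25).

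DDX5, a transcriptional coregulator and splicing factor, had the highest PRO-seq level of the family, 907 and 948 TPM, and 478, 531, 480 and 528 TPM in RNA-seq. Its log2 half-life was -0.24 (SE 0.043, edgeR adjusted p 6.58e-06), so the gene with the most nascent RNA ranked below DDX21 and DHX9 in RNA-seq level. Replicates 1 and 3 were the lower in RNA-seq. With at least 1 summed count in place of the TPM thresholds its value was 0.39 and it was called above the median mRNA. DDX17, its close relative, had 222, 228, 222 and 232 TPM in RNA-seq and 274 and 283 TPM in PRO-seq, with a log2 half-life of 0.33 (SE 0.039, edgeR adjusted p 3.17e-09). DDX20, a partner of the SMN complex, was at -0.04 and was not called.

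**Figure D2:**
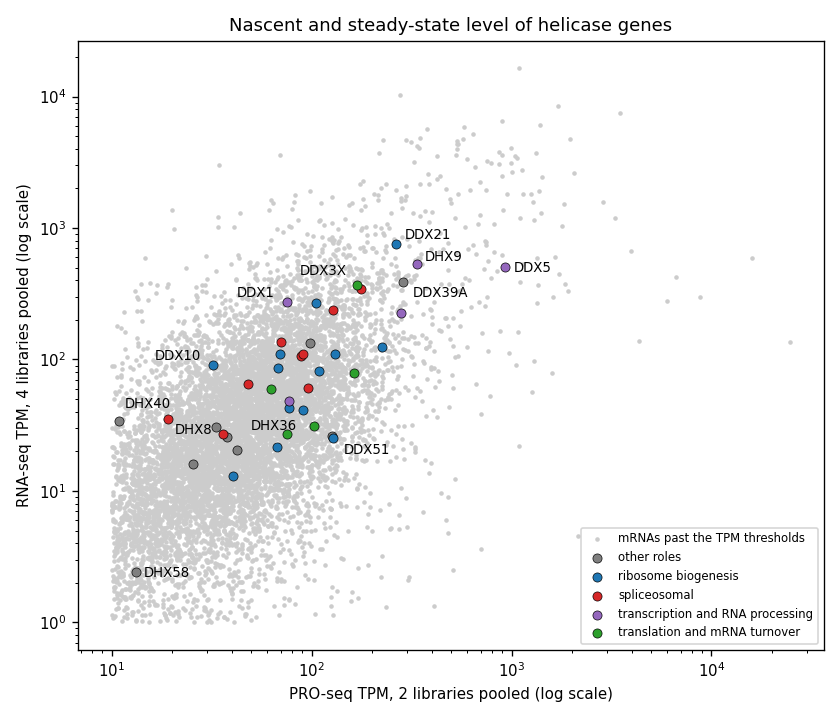
Pooled RNA-seq TPM (y axis, log scale) against pooled PRO-seq TPM (x axis, log scale) for the 8733 mRNAs past the thresholds in grey and the 41 helicases in colours of their roles. DDX1, DHX40 and DDX10 lie at the upper edge of the helicases for their PRO-seq level, DDX51 and DHX58 at the lower edge, and DDX5 is farthest to the right.

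Members with other roles took both extremes as well. DHX40, whose function is less defined, had 32.7, 35.7, 35.1 and 32.6 TPM in RNA-seq and 10.2 and 11.5 TPM in PRO-seq, so it passed the PRO-seq threshold by a small margin. DHX40 had a log2 half-life of 2.29 (SE 0.094, edgeR adjusted p 5.86e-20). DHX58, a regulator of the cytosolic sensing of viral RNA, had 2.28, 2.07, 3.40 and 2.32 TPM in RNA-seq and 13.5 and 12.9 TPM in PRO-seq. Its log2 half-life of -1.80 (SE 0.25, edgeR adjusted p 1.32e-07) was the lowest, and it rested on 86 counts in RNA-seq and 71 in PRO-seq, the fewest of any tested member. Replicate 3 was the highest in RNA-seq.

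Both mitochondrial members were called, on opposite sides. DDX28, which takes part in assembly of the mitochondrial ribosome, had 26.6, 27.4, 24.8 and 25.8 TPM in RNA-seq and 147 and 107 TPM in PRO-seq. Its log2 half-life was -1.63 (SE 0.19, edgeR adjusted p 3.32e-09). Its PRO-seq libraries were far apart and held 87 counts in all, and its whole PRO-seq window lies in a counted TU on the other strand (100%). Whether counting used strand is not stated in what was available, and the part of the overlap was not tested. DHX30 had 138, 132, 137 and 129 TPM in RNA-seq and 95.7 and 101 TPM in PRO-seq, with a log2 half-life of 1.08 (SE 0.047, edgeR adjusted p 3.08e-19). Its counted transcript is annotated as a target of nonsense-mediated decay and holds 99.97% of the MANE Select exon bases. DHX30 lay above DDX28 in every RNA-seq library, and below it in PRO-seq.

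Among the mRNA export helicases 1 of 5 listed was tested. DDX39A, which joins spliced mRNA to the export machinery, had 393, 383, 374 and 389 TPM in RNA-seq and 281 and 290 TPM in PRO-seq. Its log2 half-life was 1.07 (SE 0.048, edgeR adjusted p 5.82e-19), and its counted transcript is annotated as holding a retained intron. DDX11, a DNA helicase of chromosome cohesion with a DEAH box despite its name, was at 0.53 (SE 0.082). DDX11 has near-identical pseudogene copies, and how their reads were counted was not tested. The 4 members with other or less defined roles gave 1 call above (DHX40), 1 below (DDX59, -0.41) and 2 not called (DHX32 at 0.08 and DHX57 at -0.03). For DDX59 the counted transcript holds 78.4% of the exon bases of its MANE Select transcript and spans 1.78 times its length. What this model adds to the DDX59 value was not tested. DHX57 had 17.6, 14.6, 16.9 and 14.8 TPM in RNA-seq and 25.6 and 25.2 TPM in PRO-seq.

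The 10 members under the TPM thresholds were not tested for half-life and are described here mainly by their counts. DDX19A, DDX19B, DDX39B, DDX60 and DDX60L appear again below, with TPM values, among the related pairs. DDX19A, DDX19B, DDX53 and DDX60L passed in RNA-seq but not in PRO-seq, and DDX25, DDX39B, DDX4, DDX43, DDX47 and DDX60 passed in neither. The members nearest to the PRO-seq threshold of 10 TPM were DHX40 (10.8) and DHX58 (13.2) on the inside and DDX53 (8.01) and DDX60L (6.21) on the outside. The germline helicase DDX4 held 2 counts in RNA-seq and 5 in PRO-seq. DDX43, a cancer-testis gene, held 15 and 6, and DDX53, a testis gene, 224 and 11. DDX25, a testis member of the export group, held 0 counts in RNA-seq and 10 in PRO-seq, and its counted transcript holds 9.0% of the MANE Select exon bases.

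The low counts of DDX47 and DDX39B stood beside a shared position in the annotation. DDX47, a ubiquitous ribosome biogenesis factor, held 0 counts in RNA-seq and 1 in PRO-seq, and 99.8% of its exon bases lie in another counted TU on the same strand, where the annotation also places APOLD1. DDX39B, the export and splicing factor UAP56, held 4 counts in RNA-seq and 0 in PRO-seq. Of its exon bases, 85.0% lie in another counted TU on the same strand, where a readthrough transcript with ATP6V1G2 is annotated, and its PRO-seq window does so wholly (100%). Of 19032 counted mRNA TUs, 10.6% shared at least 10% of their exon bases on the same strand in this way, and 3 of the 51 members did. The remaining such member was DDX19A, at 61.2%. These values give the sharing in the annotation only, and its part in the counts was not tested. A count of 0 sets an upper limit of 3 counts, for counting error only, and neither gene can be called absent from these cells.

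The order of steady-state levels was led by DDX21, DHX9, DDX5, DDX39A and DDX3X, which together held 44.2% of the summed RNA-seq TPM of the family. The 51 members summed to 5764 TPM in RNA-seq and 5122 TPM in PRO-seq. DDX21 did not overlap with DHX9 in any RNA-seq library. DHX9 and DDX5 overlapped in range, as did DDX39A and DDX3X. Of the 50 neighbouring pairs in the order, 30 overlapped. Levels of the 41 tested members followed each other across assays with Spearman's ρ = 0.69, against ρ = 0.55 over the 8733 mRNAs. RNA-seq and PRO-seq levels vary over genes that share the same libraries, so this is a description.

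The balance between related helicases was compared in each library as the difference of their log2 TPM. DDX5 exceeded DDX17 by 1.11, 1.22, 1.11 and 1.19 in RNA-seq replicates 1 to 4 and by 1.73 and 1.74 in PRO-seq. The mean difference was 1.16 ± 0.057 (SD, n = 4) in RNA-seq and 1.74 ± 0.012 (SD, n = 2) in PRO-seq, so the margin of DDX5 was smaller in steady-state RNA (exact permutation test, p 0.0667). This is the smallest p that the 15 splits of 4 against 2 libraries allow, so no pair could pass 0.05, and after Benjamini-Hochberg adjustment over 6 pairs every such p became 0.08. With RNA-seq replicates 1 and 3, and 2 and 4, each summed to 1 library, the margin was 1.11 and 1.21 in RNA-seq, and the smallest p of the 6 splits was then 0.333, which every pair gave (exact permutation test). DHX36 exceeded DHX57 by 0.81, 1.05, 0.88 and 1.11 in RNA-seq and by 2.02 and 2.01 in PRO-seq (exact permutation p 0.0667). The PRO-seq values again lay above all RNA-seq values. DHX9 exceeded its relative DHX30 by 1.96, 2.00, 2.00 and 2.04 in RNA-seq and by 1.83 and 1.71 in PRO-seq (exact permutation p 0.0667). Here the margin was larger in RNA-seq.

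The other pairs differed in kind. DHX8 lay below DHX38 by a log2 difference of -0.96, -0.87, -0.84 and -0.93 in RNA-seq and -1.24 and -1.40 in PRO-seq (exact permutation p 0.0667). DDX19A, with 24.1, 18.0, 17.1 and 18.3 TPM in RNA-seq and 3.18 and 5.80 TPM in PRO-seq, and DDX19B, with 10.4, 12.2, 12.2 and 13.3 TPM and 0.269 and 0.529 TPM, are the pair with the same 30 bases shown above. DDX19A exceeded DDX19B by a mean of 0.68 ± 0.36 in RNA-seq and 3.51 ± 0.076 in PRO-seq (exact permutation p 0.0667), with replicate 1 the farthest out in RNA-seq (1.22). These rest on 60 and 9 pooled PRO-seq counts, and on 46.4% of the MANE Select exon bases for DDX19B. Of the PRO-seq windows of DDX19A and DDX19B, 96.9% and 78.0% lie in another counted TU on the same strand. On the other strand, 86.6% and 39.9% lie in a counted TU. The part of this overlap in the DDX19A and DDX19B difference was not tested. DDX60, with 0.898, 0.972, 1.02 and 0.888 TPM in RNA-seq and 1.30 and 1.31 TPM in PRO-seq, lay below DDX60L, with 5.16, 4.64, 4.74 and 5.17 TPM and 6.11 and 6.30 TPM, by a mean of -2.38 in RNA-seq and -2.25 in PRO-seq (exact permutation p 0.4). For DDX39A and DDX39B no difference could be formed, since DDX39B had 0 counts in both PRO-seq libraries and 0.257, 0.122, 0.191 and 0 TPM in RNA-seq. No value was formed for DDX21 and DDX50.

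**Figure D3:**
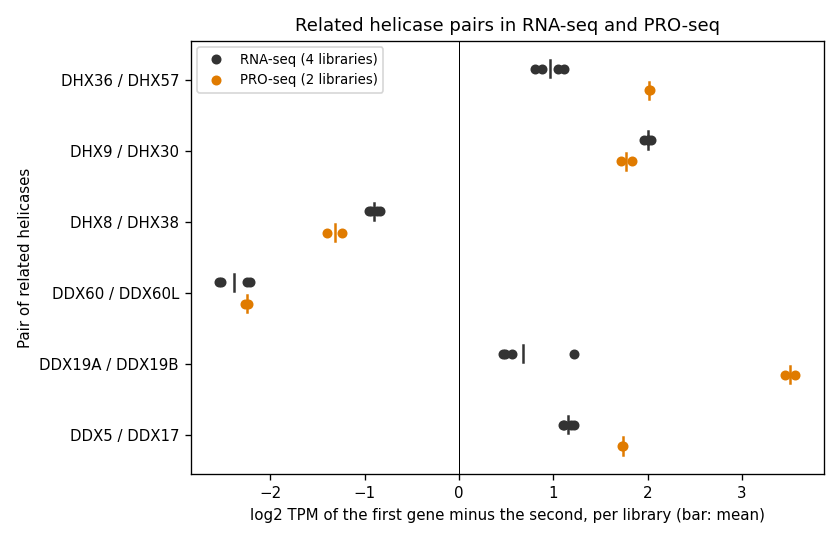
Difference of log2 TPM between the first and the second gene of 6 related pairs (x axis) in each RNA-seq library (black, n = 4) and each PRO-seq library (orange, n = 2), with bars at the means. PRO-seq lies farther right than RNA-seq for DDX5 and DDX17, DHX36 and DHX57, and DDX19A and DDX19B, and farther left for DHX8 and DHX38 and for DHX9 and DHX30. DDX19A, DDX19B, DDX60 and DDX60L were under the TPM thresholds.

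Features that the choice of members did not use were compared along the order of half-life. The share of codons with G or C at the third position was 35.4% to 41.4% in all 6 members with the highest half-life. In the 6 with the lowest it ran from 34.5% for DHX36 to 79.3% for DDX51, with a median of 65.8%. The range of the highest 6 also held DDX5 (35.8%), DDX52 (37.6%), DHX57 (38.8%) and DDX59 (39.3%), whose half-lives lay between -0.49 and -0.03. In the box codons shown above, G or C closed 3 of the 24 codons in the first 6 genes and 11 of 24 in the next 6. Over all tested members in which a box was found it closed 55 of 156. DDX1, DDX10, DDX18 and DDX3X have none, DHX40 has 1 and DDX21 has 2. DHX58 and DDX51 have 3 each and DDX28 has 2, whereas DHX36, DHX33 and DDX31 have 1 each. Across the 38 tested members with a reading frame starting at ATG, half-life and this share had Spearman's ρ = -0.35, against ρ = -0.21 over 8139 mRNAs. Members had a median share of 47.1% and mRNAs 57.4%. DHX36, at -1.09 with 34.5%, and DHX38, at 1.08 with 70.3%, lay off this trend.

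Other features were compared in the same way. Members had a median of 17 exons against 9 for mRNAs, and ρ between half-life and exon number was 0.28 over the 41 members and 0.06 over mRNAs. The 3′ UTR gave ρ = -0.26 over 40 members and -0.29 over mRNAs. Both used the counted transcripts, some of them annotated as targets of nonsense-mediated decay, and were not computed with MANE Select transcripts. For DHX30 the counted 3′ UTR had 3560 bases, against 76 in MANE Select. The 6 members with the lowest half-life had a median 3′ UTR of 2276.5 bases, against 841.5 for the 6 with the highest, and the ranges of these groups overlapped. These lengths are those of the counted transcripts, and with MANE Select transcripts the medians were 2276.5 and 1416 bases. PRO-seq TPM gave ρ = 0.03 over members and -0.01 over mRNAs. The points of these correlations share their libraries.

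RNA helicases without a DDX or DHX symbol lay on either side of the median mRNA in shares near those of all mRNAs (45.4% above and 44.9% below). Of 16 listed genes with a counted transcript, 13 were tested, 7 were above and 6 below (edgeR), with a median of 0.49. MTREX, the helicase that feeds RNA to the nuclear exosome, was at 2.85 (SE 0.042), above every DDX and DHX member, and EIF4A3, the helicase of the exon junction complex, at 1.71 (SE 0.058). SNRNP200, which unwinds U4 from U6, was at 1.18 (SE 0.049), and ZNFX1 was at -2.10 (SE 0.067). EIF4A1, the cap-binding complex helicase, held 0 counts in both assays, and it cannot be called absent from these cells. The part of its counted transcript in these counts was not tested. Of 29 genes with a counted transcript listed as helicase cofactors (G-patch or MIF4G), 24 were tested, 13 were above and 9 below, with a median of 0.29. GLE1, which activates the DDX19 proteins, was at 1.98 (SE 0.063), EIF4G1 at 0.67 (SE 0.056) and CNOT1, which binds DDX6, at -0.62 (SE 0.039). NKRF, a partner of DHX15, was at -1.05 (SE 0.090).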

How the data were processed

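Nascent RNA was measured by PRO-seq (2 libraries) and steady-state RNA by total RNA-seq (4 libraries) in K562 cells. The authors deposited raw, unnormalized counts for each transcript. The files are labelled as holding the longest transcript of a gene, whereas the methods name the most abundant, and 17 of the 51 members were counted on a transcript other than MANE Select. Trimming with Cutadapt, alignment to GRCh38 with HISAT2 and counting with HTSeq are named in the methods and the submitters' processing notes, with 500 bp at TU ends left out in PRO-seq. Tool versions, and whether strand was used, were not stated in what was available. Rows that name no TU held 66.5% to 68.6% of the records in RNA-seq and 86.5% or 88.6% in PRO-seq and were left out.

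Transcripts were joined by identifier to GENCODE release 44 on GRCh37 (37339 of 42371), which supplied symbols, lengths and sequences, so lengths can differ from those used for counting. TPM was computed from counts pooled per assay, and each TU with PRO-seq over 10 TPM and RNA-seq over 1 TPM was tested against the median mRNA with edgeR 4.0.16 (R 4.3.3), by the quasi-likelihood test with TMM normalization, length offsets and Benjamini-Hochberg adjustment at 0.05. The edgeR estimates differed from the TPM-based values by at most 0.00583 on the log2 scale. Pairs were compared by two-sided exact permutation tests with scipy 1.17.1. Alternatives were DESeq2 1.42.0, other scaling, thresholds and lengths, a pseudocount of 1 TPM, a replicate block and each library left out. Close pairs summed (related pairs included) and MANE Select transcripts alone were chosen after seeing the data. The steps were tested on simulated data.

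The members, role lists and tests were chosen with earlier results of these data known. Values in every library are given for 6 members at each end of the half-life order, the 5 with the highest RNA-seq TPM and the related pairs. Members under the thresholds are named with their counts, and other members serve as examples of their lists. The Walker B box was searched in the translated MANE Select reading frame. It was not found by this search in DDX41, DDX60, DDX60L and DHX32. Intervals of counting error are not given, as the reads carry no molecular identifiers and need not be independent.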

Additional observations from a re-analysis of the deposited data

Results flagged for a closer look

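With 4 RNA-seq libraries, 41 tested members were examined for a library far from the others by Dixon's ratio of gap to range, for which chance flags about 1 in 20 groups. DDX59 had 18.0 TPM in RNA-seq replicate 2, below the 21.4 to 22.0 TPM of the other 3. DDX6 had 83.3 TPM in RNA-seq replicate 3, above the 78.0 to 78.3 TPM of the others. Both were 2 of 41, and both members were called below the median mRNA without that library.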

How the results depend on the processing

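The counts of 24 members above and 13 below the median mRNA were the same with DESeq2, with DESeq2 size factors, with 500 bp removed, with close RNA-seq pairs summed and with the replicate block (24 and 13). The RNA-seq and PRO-seq numbers did not pair the libraries (correlation of deviations -0.00673 over 9962 TUs). Leaving out each library in turn gave 24 above in each case and 12 to 13 below. With at least 1 summed count the median mRNA moved by -0.63 and 48 members were tested. Then 38 were above and 7 below, of which 34 and 7 were among the 41, and 4 of the 7 newly tested members were above. The shares of all mRNAs called above or below with this filter were not computed, so these counts have no background beside them. Of the 41, 9 changed sign, DDX5 (0.39) and DHX57 (0.60) among them, and 6 of these went from below to above. DHX57, not called, also changed sign with at least 10 summed counts (0.082), where the shift was -0.11, and with a library left out it ran from -0.100 (without RNA-seq replicate 1) to 0.021 (without RNA-seq replicate 2). For more than 2-fold, 13 were above and 4 below, against 21.3% and 29.8% of all TUs. The median of 0.38 was 0.99 with at least 1 summed count, 0.45 with at least 10, 0.32 with stricter thresholds, 0.36 with 500 bp removed and 0.31 with MANE Select transcripts alone, and 0.35 to 0.39 with a library left out. Apart from the 2-fold test, 28 of the 38 members tested in all 14 alternative fits had the same call in each. DHX8, DHX40 and DHX58 were not tested with stricter thresholds. Among tested members, PRO-seq counts were lowest for DHX58 (71) and DDX28 (87).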
